A study of Mus musculus with 27 samples.

Results

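The Nrf2 antioxidant and NADPH genes are a set of 38 genes, picked by name from the 55483 of the counts table. They control or carry out glutathione, thioredoxin and NADPH metabolism and the disposal of peroxides and reactive chemicals. They were picked because the compound TM7nox had been seen to raise Nrf2 targets in these same libraries. The differences between LPS+TM7nox and the other treatments are therefore a description. Counts of members past the threshold are given there beside the share of all genes, and nothing is read from them. Tests are kept for LPS against DMSO, for recovery with an anti-HuR antibody and for anti-HuR against IgG. LPS against DMSO shares its LPS libraries with the comparison behind the choice, and recovery in LPS and in LPS+TM7nox shares RNA libraries with it. All 38 symbols were found once each in the table, and 37 were tested. Mgst1, a microsomal glutathione transferase, had 6 counts over all 27 libraries and passed no filter.

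The cells were RAW264.7, an established mouse macrophage line, treated for 6 h in 3 ways. DMSO is the solvent control. LPS stands for LPS at 1 µg/ml with DMSO, and LPS+TM7nox for LPS at 1 µg/ml with TM7nox at 10 µM. LPS is a bacterial lipopolysaccharide that activates macrophages, and TM7nox is one of the tanshinone mimics, compounds made to disturb the binding of the RNA-binding protein HuR to RNA. Each treatment had 4 libraries of total RNA, 4 of RNA recovered by ribonucleoprotein immunoprecipitation (RIP) with anti-HuR and 1 of RNA recovered with control IgG, which was replicate 3 in each case. TM7nox without LPS was not analysed here. All groups come from 1 cell line, and the labels do not say whether replicates were separate cultures, so p-values measure the spread between these libraries, which may be technical.

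The RNA libraries held 2.73 to 28.3 M counts, the RIP libraries 19.8 to 41.4 M and the IgG libraries 8.87 to 24.5 M. The lowest depth was that of the first DMSO replicate of RNA, and members whose call turns on this library are given without it too. Levels are CPM, counts scaled to library size, on 1 TMM scale over the 27 libraries, and 4 values in a row are replicates 1 to 4 in that order. The 10 macrophage markers summed to 3654 to 7195 CPM in the RNA libraries, although Mertk reached no more than 1.13 CPM. The T cell, B cell, epithelial and fibroblast lists each summed to 0.390 CPM or less, the endothelial list to 0.101 to 2.21 CPM, and the hepatocyte gene Alb was at 0. The neutrophil list, of which S100a9 and Ly6g were at 0, summed to at most 0.101 CPM in DMSO, 1.57 to 3.25 in LPS and at most 0.490 in LPS+TM7nox, all from S100a8. The part of these lists in the results was not tested. Libraries with the same replicate number deviated together, and the numbers 1 and 2 differed from 3 and 4 in how many genes passed the test, so counts are also given within these pairs of numbers.

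Nrf2, encoded by Nfe2l2, is a transcription factor that is held in the cytoplasm and marked for breakdown by Keap1. When reactive chemicals or oxidants modify Keap1, Nrf2 accumulates, pairs with small Maf proteins such as those of Mafg and Maff, and binds antioxidant response elements (AREs) near its target genes. These targets import cystine, make and recycle glutathione and thioredoxin, and supply the NADPH on which both systems run. In macrophages they meet the oxidants that the cells themselves release on activation. HuR, encoded by Elavl1, attaches to mRNAs where they are rich in U or in A and U, mostly in the 3′ UTR.

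The promoters of the members were searched for the core of the ARE, written TGACNNNGC, and for the related AP-1 motif, TGANTCA, on both strands. The window ran from 250 bases before to 50 bases from the start of the transcript that GENCODE M39 tags as canonical, on GRCm39. A core was found in 9 of 38 members (23.7%) and in 2713 of 21757 protein-coding promoters (12.5%). AP-1 was found in 5 of 38 (13.2%) and in 1555 of 21757 (7.15%). The 9 were Mafg, Sqstm1, Gclm, Txnrd1, Srxn1, Prdx1, Prdx6, Sod1 and Blvra. Which start these cells use was not tested, and the canonical starts of Txnrd1, Prdx1 and Sqstm1 lie well inside the bounds of the gene. The promoters of 5 of the 9 are printed as examples, chosen with their values known, to show the core in its place. Each is read 5′ to 3′ on the gene's strand, with the core, or its reverse complement, in capitals.
Gclm: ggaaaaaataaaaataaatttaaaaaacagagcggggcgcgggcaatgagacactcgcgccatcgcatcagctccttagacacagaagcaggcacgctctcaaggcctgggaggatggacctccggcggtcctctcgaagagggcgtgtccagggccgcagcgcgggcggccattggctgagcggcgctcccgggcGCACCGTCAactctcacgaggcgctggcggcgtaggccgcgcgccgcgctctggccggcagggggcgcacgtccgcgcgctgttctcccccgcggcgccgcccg
Txnrd1: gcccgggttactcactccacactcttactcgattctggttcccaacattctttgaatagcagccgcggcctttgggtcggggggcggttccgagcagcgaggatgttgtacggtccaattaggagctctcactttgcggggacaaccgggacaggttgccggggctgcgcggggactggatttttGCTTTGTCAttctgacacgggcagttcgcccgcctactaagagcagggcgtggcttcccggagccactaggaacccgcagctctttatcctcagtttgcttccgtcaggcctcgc
Prdx1: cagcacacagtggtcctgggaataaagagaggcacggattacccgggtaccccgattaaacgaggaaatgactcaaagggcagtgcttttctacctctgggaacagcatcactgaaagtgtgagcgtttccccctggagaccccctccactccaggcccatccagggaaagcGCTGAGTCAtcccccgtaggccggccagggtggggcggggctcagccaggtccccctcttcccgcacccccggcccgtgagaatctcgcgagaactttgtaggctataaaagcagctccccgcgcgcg
Sqstm1: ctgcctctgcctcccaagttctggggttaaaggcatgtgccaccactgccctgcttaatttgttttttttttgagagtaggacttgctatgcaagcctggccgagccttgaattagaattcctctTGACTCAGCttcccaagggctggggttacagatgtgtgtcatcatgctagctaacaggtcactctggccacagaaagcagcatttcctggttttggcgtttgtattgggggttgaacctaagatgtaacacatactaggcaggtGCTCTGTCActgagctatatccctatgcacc
Srxn1: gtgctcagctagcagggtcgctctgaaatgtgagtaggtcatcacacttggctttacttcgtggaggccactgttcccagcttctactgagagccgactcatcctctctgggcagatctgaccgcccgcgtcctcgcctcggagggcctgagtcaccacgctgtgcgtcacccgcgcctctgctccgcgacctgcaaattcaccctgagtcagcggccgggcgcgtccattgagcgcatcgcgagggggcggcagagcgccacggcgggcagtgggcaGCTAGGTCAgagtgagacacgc
The windows lie at chr3:122038876-122039175 on the + strand for Gclm, chr10:82694763-82695062 on the + strand for Txnrd1, chr4:116542491-116542790 on the + strand for Prdx1, chr11:50102836-50103135 on the - strand for Sqstm1 and chr2:151947194-151947493 on the + strand for Srxn1. Sqstm1 had 2 cores, and in the first of them and in that of Prdx1 the core TGACTCAGC overlapped an AP-1 motif. The other cores, read on the strand where the motif runs forward, were TGACCGTGC for Mafg, TGACTTAGC for Prdx6, TGACTTTGC for Sod1 and TGACCGAGC for Blvra. No core lay in these windows of Nqo1, Slc7a11, Gclc and Osgin1, which says nothing of sequence outside them.

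In total RNA, LPS against DMSO asks what activation alone did to the set. LPS raised 13 of the 37 members tested and lowered 4, by edgeR's quasi-likelihood test with Benjamini-Hochberg adjustment over all genes. In bulk RNA, fewer cells with an mRNA and less of it per cell cannot be told apart. Of all 12369 genes tested, 20.2% were called higher and 21.7% lower, while 35.1% of the members were called higher and 10.8% lower. The difference of these shares was not tested. The median log2 fold change was -0.00 over the members and -0.04 over all genes. The thioredoxin system and peroxiredoxins held 6 of the 13 increases, while Gclc, Gpx1, Cbr1 and Tkt fell. Within replicates 1 and 2 there were 5 calls against 13.4% of all genes, and within replicates 3 and 4 there were 27 against 58.7%. All 17 called members kept their direction in both pairs of numbers.

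In LPS+TM7nox against LPS, 20 members were called higher and 3 lower in RNA, against 7.37% and 6.40% of all genes. This comparison led to the choice of the set, so nothing is read from its counts. The same holds for LPS+TM7nox against DMSO, with 23 higher and 3 lower members, against 23.7% and 23.6% of all genes. The members together took 0.399% to 0.568% of the counts of an RNA library in DMSO and LPS, and 1.03% to 1.35% in LPS+TM7nox.

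**Figure D1:**
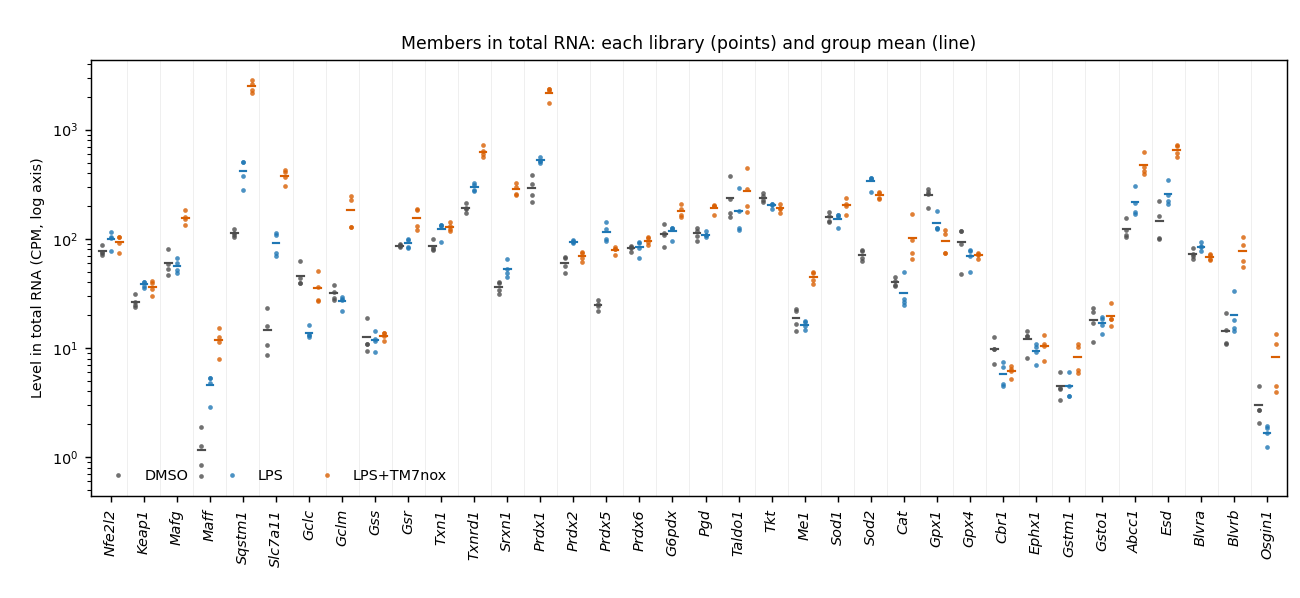
Level in total RNA (CPM, log axis) of the 36 members other than Nqo1 and Mgst1, with a point for each of 4 libraries and a line at the mean of DMSO (grey), LPS (blue) and LPS+TM7nox (orange). Slc7a11, Sod2, Prdx5 and Sqstm1 lie higher in LPS than in DMSO in every library, and Gclc lies lower.

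Of the 5 regulators, LPS raised Sqstm1, Maff and Keap1 in RNA. Sqstm1 (chr11:50089572-50107684, - strand) encodes p62, an autophagy receptor that can bind Keap1 and is itself an Nrf2 target. It lay at 122, 105, 108 and 114 CPM in DMSO, 377, 278, 509 and 502 in LPS and 2870.1, 2151, 2628 and 2317 in LPS+TM7nox. The 3 groups did not overlap. LPS raised it (log2 fold change 1.83, SE 0.186, adjusted p = 2.78e-06), and LPS+TM7nox lay a further 2.59 (SE 0.191) log2 above LPS. Sqstm1 shares 1412 exonic bases with Mrnip on the opposite strand.

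Maff (chr15:79230821-79243276, + strand) encodes a small Maf partner of Nrf2, and stood at 1.28, 1.89, 0.852 and 0.666 CPM in DMSO, 2.91, 4.76, 5.29 and 5.29 in LPS and 11.4, 7.95, 12.6 and 15.3 in LPS+TM7nox. Its level was low in DMSO, 127 counts over 4 libraries, and every LPS library lay above every DMSO library (log2 fold change 1.91, SE 0.340, adjusted p = 0.000425). LPS+TM7nox lay 1.37 (SE 0.303) above LPS. Mafg (chr11:120515942-120524530, - strand), the other small Maf of the set, stood at 80.2, 47.0, 58.6 and 53.0 CPM in DMSO, 51.8, 48.2, 66.6 and 60.0 in LPS and 182, 134, 160.1 and 151 in LPS+TM7nox. DMSO and LPS overlapped (log2 fold change -0.13, SE 0.174, adjusted p = 0.590), and the 4 LPS+TM7nox libraries were above both, by 1.47 (SE 0.176) over LPS. Mafg shares 125 exonic bases with Sirt7 on the same strand, and the sources used here do not say how reads there were counted.

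Keap1 (chr9:21141026-21150679, - strand), the sensor that holds Nrf2 back, stood at 31.0, 24.8, 24 and 26.5 CPM in DMSO, 35.5, 36.9, 40.3 and 40.0 in LPS and 30.2, 39.2, 34.6 and 41.5 in LPS+TM7nox. LPS raised it (log2 fold change 0.47, SE 0.131, adjusted p = 0.00967), with no overlap of the groups. LPS+TM7nox differed from LPS by -0.07 (SE 0.129), less than its SE. Nfe2l2 (chr2:75504739-75534985, - strand), which encodes Nrf2 itself, stood at 70.6, 87.9, 76.2 and 74.5 CPM in DMSO, 76.7, 116, 102 and 104 in LPS and 74.3, 104, 105 and 91.5 in LPS+TM7nox. The groups overlapped and the LPS difference did not pass the test (log2 fold change 0.31, SE 0.137, adjusted p = 0.0889). The settings after a blocked p are all the alternatives tried for that value, with the lowest and highest adjusted p among them. Nfe2l2 passed with the replicate number as a block (adjusted p = 0.00923; 0.00138 to 0.633 over 18 settings), without RNA LPS replicate 1 (adjusted p = 0.0240) and without RNA LPS+TM7nox replicate 1 (adjusted p = 0.0320). The mRNAs of the 2 genes at the head of the pathway differed little between LPS+TM7nox and LPS, -0.09 for Nfe2l2 and -0.07 for Keap1 on the log2 scale.

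Of the 5 glutathione genes, LPS raised Slc7a11 and lowered Gclc, and Gclm, Gsr and Gss did not pass the test. Slc7a11 (chr3:49846975-50398070, - strand), the cystine importer that supplies cysteine for glutathione, lay at 23.1, 15.8, 10.6 and 8.69 CPM in DMSO, 114, 108, 73.8 and 70.2 in LPS and 423, 409, 366 and 307 in LPS+TM7nox. No 2 groups overlapped. LPS raised it more than any other member (log2 fold change 2.65, SE 0.290, adjusted p = 5.67e-06), and LPS+TM7nox lay 2.04 (SE 0.275) above LPS. Gclc (chr9:77661797-77701770, + strand), the catalytic subunit of glutamate-cysteine ligase, the rate-limiting enzyme of glutathione synthesis, went the other way. It lay at 62.5, 39.6, 43.4 and 39.1 CPM in DMSO, 16.3, 13.2, 12.5 and 13.1 in LPS and 51.0, 36.5, 27.4 and 26.9 in LPS+TM7nox. Every LPS library was below every DMSO library, the largest decrease among the members (log2 fold change -1.79, SE 0.233, adjusted p = 2.90e-05). In LPS+TM7nox it was 1.37 (SE 0.230) above LPS and -0.43 (SE 0.226) against DMSO, and its libraries overlapped those of DMSO. Each LPS+TM7nox library lay below the DMSO library of the same number. The difference from DMSO was called with the replicate block and not without it.

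Gclm (chr3:122039126-122065061, + strand), the modifier subunit of the same ligase, stood at 37.7, 32.8, 27.4 and 29.0 CPM in DMSO, 28.2, 29.5, 21.7 and 27.3 in LPS and 229, 245, 129 and 128 in LPS+TM7nox. LPS and DMSO overlapped (log2 fold change -0.30, SE 0.223, adjusted p = 0.312). LPS+TM7nox was 2.78 (SE 0.233) above LPS, and its replicates 1 and 2 lay above its replicates 3 and 4. Gclm shares 492 exonic bases with the pseudogene Gm6061 on the same strand. Gsr (chr8:34142551-34188192, + strand), glutathione reductase, which uses NADPH to restore reduced glutathione, stood at 86.0, 89.3, 87.3 and 83.8 CPM in DMSO, 97.6, 99.8, 84.4 and 82.8 in LPS and 183, 188, 129.9 and 120.3 in LPS+TM7nox. Its DMSO libraries varied little and overlapped those of LPS (log2 fold change 0.02, SE 0.153, adjusted p = 0.936), and LPS+TM7nox was 0.77 (SE 0.154) above LPS. Gsr shares 144 exonic bases with the small RNA gene Gm24727 on the same strand. Gss (chr2:155405096-155455505, - strand), glutathione synthetase, which makes the last step of synthesis, stood at 12.6 ± 4.38 CPM in DMSO, 11.9 ± 2.10 in LPS and 13.0 ± 0.961 in LPS+TM7nox (n = 4 each, ± SD), within the spread (log2 fold change -0.10, SE 0.217, adjusted p = 0.758).

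Of the 7 genes of the thioredoxin and peroxiredoxin group, LPS raised 6. Prdx5 (chr19:6884065-6887792, - strand), a peroxiredoxin found in mitochondria, peroxisomes and the cytosol, lay at 21.8, 27.4, 24.2 and 25.2 CPM in DMSO, 95.4, 100.5, 142 and 124 in LPS and 84.4, 70.8, 80.7 and 81.2 in LPS+TM7nox. The lowest LPS library was far above the highest DMSO library (log2 fold change 2.16, SE 0.135, adjusted p = 2.44e-08). LPS+TM7nox was lower than LPS, by a log2 of -0.54 (SE 0.128), and still above DMSO in every library. Prdx5 shares 732 exonic bases with Trmt112 on the opposite strand.

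Prdx1 (chr4:116532123-116558398, + strand), the main cytosolic peroxiredoxin of macrophages, lay at 382, 317, 219 and 252 CPM in DMSO, 495, 517, 518 and 556 in LPS and 1745, 2337, 2337 and 2277 in LPS+TM7nox. LPS raised it without overlap (log2 fold change 0.77, SE 0.176, adjusted p = 0.00282), and LPS+TM7nox was 2.06 (SE 0.182) above LPS. Prdx2 (chr8:85693354-85702350, + strand), its close relative, lay at 48.4, 68.4, 56.1 and 67.3 CPM in DMSO, 92.9, 95.8, 98.2 and 91.0 in LPS and 74.3, 76.2, 60.8 and 67.0 in LPS+TM7nox. It too rose with LPS (log2 fold change 0.60, SE 0.122, adjusted p = 0.00130), but in LPS+TM7nox it was lower than in LPS, by -0.44 (SE 0.122). The relatives thus lay on opposite sides of LPS under TM7nox. The difference between the genes was not tested. Prdx2 shares 765 exonic bases with Rnaseh2a, 173 with Junb and 148 with Gm49661, all on the opposite strand. Prdx6 (chr1:161051417-161079098, - strand), which also has phospholipase activity, lay at 81.9 ± 4.48 CPM in DMSO, 83.7 ± 12 in LPS and 96.1 ± 6.96 in LPS+TM7nox (n = 4 each, ± SD) and did not pass the test for LPS (log2 fold change -0.03, SE 0.113, adjusted p = 0.871).

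Txnrd1 (chr10:82669785-82733546, + strand), the cytosolic thioredoxin reductase, a selenoenzyme fed by NADPH, lay at 192, 214, 188 and 173 CPM in DMSO, 325, 311, 274 and 281 in LPS and 641, 718, 597 and 558 in LPS+TM7nox. The 3 groups did not overlap, with a rise under LPS (log2 fold change 0.58, SE 0.126, adjusted p = 0.00201) and a further 1.08 (SE 0.127) in LPS+TM7nox. Its substrate thioredoxin, encoded by Txn1 (chr4:57934208-57956424, - strand), lay at 84.1, 99.7, 81.3 and 78.3 CPM in DMSO, 93.7, 135, 131 and 133 in LPS and 117, 142, 132 and 123 in LPS+TM7nox. LPS raised Txn1 (log2 fold change 0.46, SE 0.129, adjusted p = 0.0104), although LPS replicate 1 fell among the DMSO libraries, and LPS+TM7nox differed from LPS by 0.07 (SE 0.128). Srxn1 (chr2:151947436-151957687, + strand), sulfiredoxin, which repairs overoxidised peroxiredoxins, lay at 40.2, 39.4, 33.7 and 31.4 CPM in DMSO, 65.2, 45.1, 52.7 and 48.9 in LPS and 325, 299, 257 and 254 in LPS+TM7nox. LPS raised it without overlap (log2 fold change 0.50, SE 0.154, adjusted p = 0.0178). That call was lost without RNA DMSO replicate 3 (adjusted p = 0.0534), RNA DMSO replicate 4 (0.0595) or RNA LPS replicate 1 (0.0558). LPS+TM7nox lay 2.42 (SE 0.160) above LPS.

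Of the 5 NADPH-producing and pentose phosphate genes, LPS lowered Tkt, and the other 4 did not pass the test in RNA. Tkt (chr14:30270156-30299612, + strand), transketolase of the non-oxidative branch, stood at 227, 217, 247 and 263 CPM in DMSO, 208, 189.5, 202 and 208 in LPS and 209, 187, 193 and 172 in LPS+TM7nox. The fall with LPS was small (log2 fold change -0.30, SE 0.104, adjusted p = 0.0330). Leaving out any 1 of RNA DMSO replicates 3 and 4, RNA LPS replicates 2, 3 and 4 or RNA LPS+TM7nox replicate 1 ended the call, with adjusted p from 0.0633 to 0.0962, as did DESeq2's size factors. Taldo1 (chr7:140972053-140982886, + strand), transaldolase of the same branch, lay at 373, 234, 159 and 174 CPM in DMSO, 295, 178, 121 and 127 in LPS and 448, 284, 199 and 177 in LPS+TM7nox. Replicate 1 was the highest of every group, and the groups overlapped (log2 fold change -0.44, SE 0.372, adjusted p = 0.379). With the replicate block its fall with LPS was called (adjusted p = 0.000251; 0.000251 to 0.862 over 18 settings).

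G6pdx (chrX:73449857-73472819, - strand), the first and NADPH-forming enzyme of the pentose phosphate pathway, stood at 138, 84.4, 113 and 109 CPM in DMSO, 126, 94.8, 126 and 123 in LPS and 207, 157, 188 and 167 in LPS+TM7nox. DMSO and LPS overlapped (log2 fold change 0.03, SE 0.161, adjusted p = 0.917), and LPS+TM7nox was 0.62 (SE 0.161) above LPS. Pgd (chr4:149233246-149251228, - strand), which forms the next NADPH of the pathway, stood at 96.5, 107, 125 and 119 CPM in DMSO, 117, 104, 109 and 108 in LPS and 205, 201, 199 and 164 in LPS+TM7nox. Its LPS difference was within the spread (log2 fold change -0.09, SE 0.11, adjusted p = 0.572), and LPS+TM7nox was 0.81 (SE 0.11) above LPS. Me1 (chr9:86462646-86578104, - strand), cytosolic malic enzyme, another source of NADPH, lay at 22.9, 21.7, 16.7 and 14.2 CPM in DMSO, 17.2, 17.6, 14.7 and 16.0 in LPS and 48.5, 49.2, 41.7 and 38.4 in LPS+TM7nox. LPS and DMSO overlapped (log2 fold change -0.25, SE 0.169, adjusted p = 0.265), while every LPS+TM7nox library was above both, by 1.44 (SE 0.169) over LPS. Me1 shares 2146 exonic bases with Rwdd2a and G6pdx 526 with Ikbkg, both on the opposite strand. In the same comparison Taldo1 was at 0.62 (SE 0.372) and Tkt at -0.08 (SE 0.104).

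Among the superoxide and peroxide enzymes, LPS raised Sod2 and lowered Gpx1. Sod2 (chr17:13224095-13259591, + strand), the manganese superoxide dismutase of mitochondria, lay at 62.9, 77.3, 79.1 and 67.3 CPM in DMSO, 269.6, 362, 362 and 352 in LPS and 239, 261, 270.1 and 234 in LPS+TM7nox. LPS raised it in every library (log2 fold change 2.17, SE 0.121, adjusted p = 9.74e-09), and LPS+TM7nox was -0.42 (SE 0.116) against LPS with overlapping libraries. Gpx1 (chr9:108216102-108217546, + strand), the abundant cytosolic glutathione peroxidase, lay at 191, 269, 285 and 255 CPM in DMSO, 122, 179.6, 127 and 127 in LPS and 111, 121, 74.9 and 73.8 in LPS+TM7nox. It fell with LPS (log2 fold change -0.90, SE 0.192, adjusted p = 0.00168), and LPS+TM7nox was -0.54 (SE 0.191) against LPS, without overlap but not called without the replicate block and called with it. Against DMSO, LPS+TM7nox was at -1.44 (SE 0.194), the lowest of all members in that comparison.

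Cat (chr2:103284194-103316185, - strand), catalase of peroxisomes, lay at 44.9, 36.7, 37.5 and 41 CPM in DMSO, 49.4, 24.9, 26.4 and 28.3 in LPS and 169, 97.8, 73.7 and 65.8 in LPS+TM7nox. Replicate 1 was the highest in each group. LPS and DMSO overlapped (log2 fold change -0.36, SE 0.293, adjusted p = 0.358), and the fall was called with the replicate block (adjusted p = 0.0258; 0.000773 to 0.864 over 18 settings). LPS+TM7nox lay 1.66 (SE 0.296) above LPS. Gpx4 (chr10:79883000-79892273, + strand), the selenoenzyme that reduces lipid peroxides, lay at 47.9, 90.3, 118 and 118 CPM in DMSO and 49.6, 70.1, 78.0 and 78.5 in LPS. The lowest DMSO value is that of the shallow library, and the groups overlapped (log2 fold change -0.50, SE 0.213, adjusted p = 0.0771). Without RNA DMSO replicate 1 Gpx4 fell by 0.69 (adjusted p = 0.00186), and with the replicate block it was called (adjusted p = 0.0274; 0.000103 to 0.700 over 18 settings). Rows of Gpx4 pseudogenes held up to 3.68% as many counts as Gpx4. Sod1 (chr16:90017408-90027657, + strand), the copper-zinc superoxide dismutase, was at 157 ± 15.2 CPM in DMSO, 153 ± 19.6 in LPS and 203 ± 29.6 in LPS+TM7nox (n = 4 each, ± SD), and did not pass the test for LPS (log2 fold change -0.09, SE 0.138, adjusted p = 0.660). It shares 4217 exonic bases with Scaf4 on the opposite strand.

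Of the 10 detoxification, conjugation and export genes tested, LPS raised Abcc1 and Esd and lowered Cbr1. Abcc1 (chr16:14179311-14293601, + strand), which exports glutathione conjugates, lay at 154, 121, 109 and 105 CPM in DMSO, 305, 214, 170.1 and 175 in LPS and 624, 455, 415 and 396 in LPS+TM7nox. The groups did not overlap (log2 fold change 0.77, SE 0.223, adjusted p = 0.0127), and LPS+TM7nox was 1.13 (SE 0.223) above LPS. Esd (chr14:74969722-74989991, + strand), which completes the glutathione-dependent oxidation of formaldehyde, lay at 221, 161, 102 and 98.8 CPM in DMSO, 349, 254, 209 and 223 in LPS and 715, 725, 613 and 563 in LPS+TM7nox. LPS raised it (log2 fold change 0.77, SE 0.259, adjusted p = 0.0275), but the call was lost without RNA DMSO replicate 3 (adjusted p = 0.0837), RNA DMSO replicate 4 (0.0796) or RNA LPS replicate 1 (0.0871). LPS+TM7nox was 1.34 (SE 0.261) above LPS, without overlap. Cbr1 (chr16:93402741-93407393, + strand), a carbonyl reductase that uses NADPH, lay at 12.6, 7.16, 9.76 and 9.76 CPM in DMSO and 4.51, 4.73, 7.41 and 6.70 in LPS. It fell (log2 fold change -0.79, SE 0.216, adjusted p = 0.00927), although the lowest DMSO library lay below the highest LPS library.

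Nqo1 (chr8:108113835-108129934, - strand), a quinone reductase that is the textbook Nrf2 target, was close to absent without TM7nox. Its RNA counts in replicates 1 to 4 were 0, 2, 4 and 2 in DMSO, 4, 1, 0 and 0 in LPS, and 52, 32, 24 and 20 in LPS+TM7nox. LPS against DMSO rests on 8 and 5 counts, and Nqo1 passed the filter of that fit only through LPS+TM7nox. No test of LPS is therefore given for it, and it counts among the 37 as not called. The 4 LPS+TM7nox libraries reached 2.53, 1.21, 0.799 and 0.861 CPM, a fitted log2 difference of 4.74 (SE 0.836) to LPS that depends on the few LPS counts. Osgin1 (chr8:120152470-120173000, + strand), an oxidative stress gene, lay at 4.49, 2.70, 2.72 and 2.06 CPM in DMSO, 1.87, 1.94, 1.66 and 1.25 in LPS and 13.5, 10.9, 4.50 and 3.92 in LPS+TM7nox. Every LPS library was below every DMSO library, without passing the test (log2 fold change -0.81, SE 0.414, adjusted p = 0.136), and the fall was called with the replicate block (adjusted p = 0.0223; 0.0223 to 0.276 over 18 settings). LPS+TM7nox was 2.29 (SE 0.405) above LPS.

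Blvrb (chr7:27147275-27165569, + strand) and Blvra (chr2:126912556-126939017, + strand) encode reductases that turn biliverdin, a product of heme breakdown, into bilirubin. Blvrb lay at 21.0, 14.6, 10.9 and 11.2 CPM in DMSO, 33.1, 18.1, 14.2 and 15.2 in LPS and 104, 87.4, 62.8 and 55.6 in LPS+TM7nox. LPS and DMSO overlapped (log2 fold change 0.47, SE 0.313, adjusted p = 0.255), and its rise was called with the replicate block (adjusted p = 0.00827; 0.00655 to 0.772 over 18 settings). LPS+TM7nox was 1.94 (SE 0.312) above LPS. Blvra lay at 83.2, 64.9, 70.2 and 72.7 CPM in DMSO, 85.5, 77.1, 84.4 and 92.8 in LPS and 71.7, 65.5, 73.0 and 64.6 in LPS+TM7nox. It did not pass the test for LPS (log2 fold change 0.17, SE 0.112, adjusted p = 0.256) and did so without RNA DMSO replicate 1, the shallow library (0.26, adjusted p = 0.0445). LPS+TM7nox was -0.31 (SE 0.111) against LPS for Blvra, in the other direction from Blvrb, and that value was called with the replicate block and not without it.

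The remaining detoxification genes were lowly expressed and were not called for LPS. Ephx1, microsomal epoxide hydrolase, averaged 12 ± 2.68 CPM in DMSO and 9.40 ± 1.73 in LPS (± SD over 4; log2 fold change -0.43, SE 0.203, adjusted p = 0.104). Its fall was called with the replicate block (adjusted p = 0.0463; 0.0208 to 0.598 over 18 settings) and without RNA DMSO replicate 1 (adjusted p = 0.0347). Gstm1, a glutathione transferase, was at 4.46 ± 1.11, 4.47 ± 1.14 and 8.29 ± 2.53 CPM in DMSO, LPS and LPS+TM7nox (0.89 over LPS, SE 0.273). Gsto1, another transferase, was at 18.1 ± 5.24, 16.9 ± 2.51 and 19.6 ± 4.29 CPM in the same order. Mgst1 had 3 counts over the 4 DMSO libraries of RNA. In LPS it had 0 counts, which allows a level of up to 0.0314 CPM, and in LPS+TM7nox 0 counts, which allows up to 0.0346 CPM (3 counts over the 4 libraries, counting error only).

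**Figure D2:**
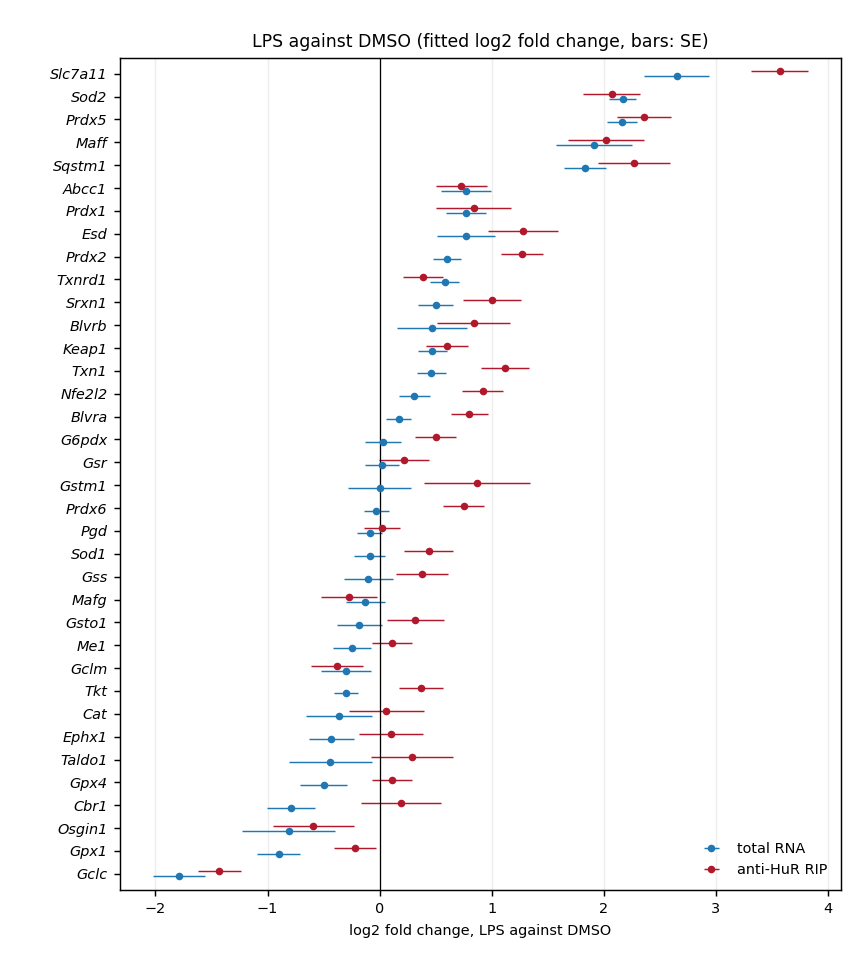
Fitted log2 fold change of LPS against DMSO (points, bars are the SE) for 36 members in total RNA (blue) and in anti-HuR RIP (red), ordered by RNA; Nqo1, with few counts, is left out. Slc7a11, Sod2, Prdx5, Maff and Sqstm1 lie highest in both, and Gclc lies lowest in both.

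Set per length, the levels in RNA spanned a wide range. In DMSO the highest per kilobase of canonical transcript were Gpx1 at 233 ± 38.4 CPM per kb and Taldo1 at 186 ± 77.4 (n = 4 each, ± SD), which did not differ beyond their spread. Prdx1 (109 ± 27.0), Txn1 (109 ± 12.1) and Gpx4 (97.5 ± 34.5) followed, also within each other's spread. Slc7a11 (1.58 ± 0.698), Osgin1 (1.49 ± 0.520) and Maff (0.599 ± 0.278) were low, and Nqo1 was at 0.0232 ± 0.0202. In LPS the order was led by Prdx1 at 195 ± 9.49, then Txn1 at 156 ± 24.8 and Taldo1 at 142 ± 63.6 CPM per kb. Sqstm1 was at 34.3 ± 2.40 in DMSO and 127 ± 33.8 in LPS. In LPS+TM7nox, Prdx1 (813 ± 107) and Sqstm1 (762 ± 98.1) were the highest and within each other's spread, with Taldo1 next at 219 ± 97.3. These are levels, not differences, and depend on the canonical transcript being the one the cells use.

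For other genes of these pathways the changes with LPS are given list by list, and no list was tested against the members. Of 6 tested genes of Nrf2 control outside the set, LPS raised 3 in RNA: Mafk, another small Maf, by 1.60 (SE 0.162), Nfe2l1, a relative of Nrf2, by 0.68 (SE 0.140), and Bach1, a repressor of Nrf2 targets, by 0.55 (SE 0.147). Of 13 other glutathione genes, 4 rose and 2 fell. Glrx, a glutaredoxin, rose by 3.11 (SE 0.262), from 31.8 ± 11.9 to 285 ± 20.9 CPM (n = 4 each, ± SD). Chac1, which breaks glutathione down, rose by 2.62 (SE 0.424). Mgst2, a microsomal glutathione transferase, was at 6.85, 2.67, 2.29 and 2.23 CPM in DMSO and 1.38 to 1.78 CPM in LPS. Its change of -1.10 (SE 0.415) became -0.63 (adjusted p = 0.12 by edgeR) without the first DMSO replicate, and its call was lost without 8 of the 12 libraries, each left out in turn. Over the 12 fits the glutathione genes gave 3 to 5 higher and 1 to 3 lower. Of 10 other thioredoxin genes 1 rose and 1 fell, both sestrins: Sesn2 changed by 1.74 (SE 0.285) and Sesn1 by -2.98 (SE 0.312). Without the first DMSO replicate, 2 thioredoxin genes were called in each direction.

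Of 13 other NADPH genes, LPS raised 3 and lowered 5. The largest changes were those of Nadk2, the mitochondrial NAD kinase, at -1.39 (SE 0.172), Idh1, cytosolic isocitrate dehydrogenase, at -1.31 (SE 0.192), and Mthfd1, of the folate cycle, at -0.79 (SE 0.200). Of the 7 genes of the phagocyte NADPH oxidase, which spends NADPH to make superoxide, LPS raised 5 in RNA. Cybb, its catalytic subunit, rose by 1.46 (SE 0.174), from 358 ± 79.2 to 1019.9 ± 150.5 CPM (n = 4 each, ± SD), and Rac2 by 0.69 (SE 0.134). These lists stand against the 20.2% and 21.7% of all genes called higher and lower.

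**Figure D3:**
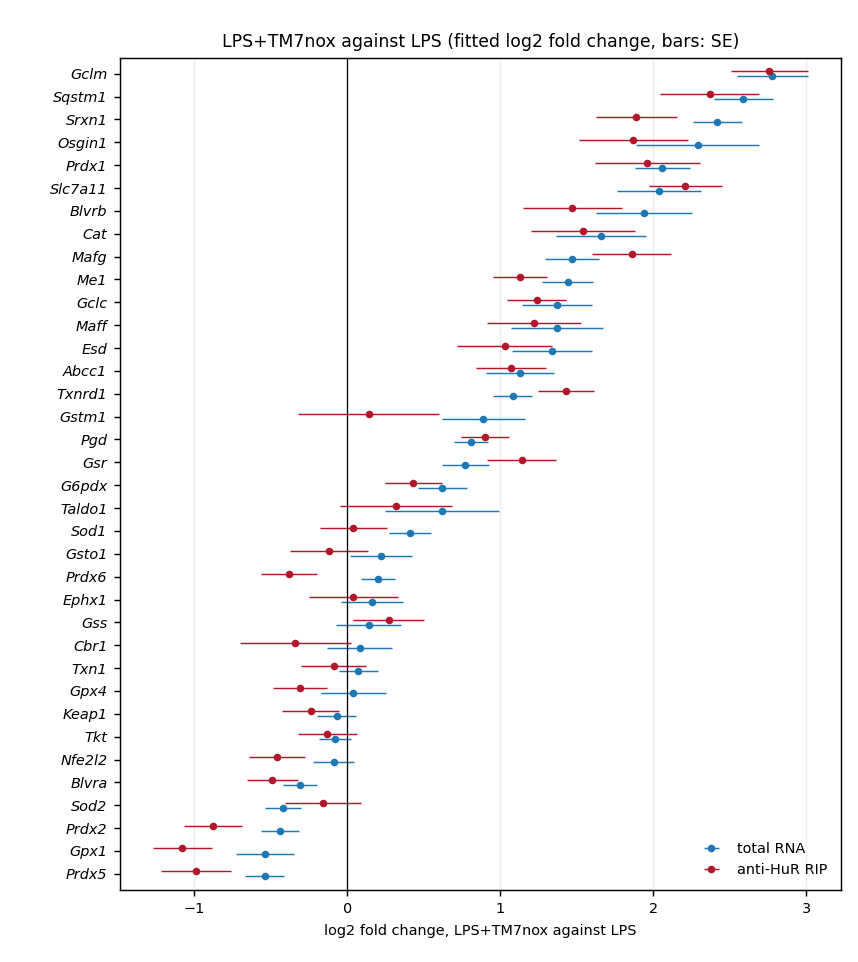
Fitted log2 fold change of LPS+TM7nox against LPS (points, bars are the SE) for 36 members in total RNA (blue) and in anti-HuR RIP (red), ordered by RNA; Nqo1, with few counts, is left out. This comparison led to the choice of the members and is shown as a description: Gclm, Sqstm1 and Srxn1 lie highest in RNA, and Prdx5, Gpx1, Prdx2 and Sod2 lie lowest.

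Across the members, the differences of LPS+TM7nox from LPS in RNA ran from -0.54 for Prdx5 to 4.74 for Nqo1, with a median of 0.77 against -0.00 over all genes. The members just inside the threshold by adjusted p were Gstm1 (0.89, SE 0.273) among those higher and Prdx2 (-0.44, SE 0.122) among those lower, and Sod1 (0.41, SE 0.138) and Gpx1 (-0.54, SE 0.191) lay just outside it. Prdx5, Prdx2 and Sod2, called lower in LPS+TM7nox than in LPS, were members that LPS raised, and they share the LPS libraries in both comparisons. In RIP the same treatments gave 18 members called higher and 3 lower, against 8.64% and 7.61% of all genes, again without a test of the set. Slc7a11 went from 604, 691, 526 and 364 CPM in LPS to 2567, 2936, 2526 and 1885 in LPS+TM7nox, and Gclm from 38.6, 35.0, 30.8 and 28.4 to 277, 323, 173 and 118. For Nqo1 the difference in RIP was 3.07 (SE 0.732), and 4.71 without RIP LPS replicate 1, which held 45 of the 58 counts in that treatment.

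The RIP libraries hold what anti-HuR pulled down, so their LPS against DMSO difference follows both the level of an mRNA and its recovery. LPS raised 16 of 37 members and lowered 1, against 23.5% and 21.2% of all 13614 genes tested, or 43.2% and 2.70% of the members. The median log2 fold change was 0.44 over the members and -0.00 over all genes. The decrease was that of Gclc, which stood at 34.3, 23.0, 25.6 and 23.6 CPM in DMSO and 9.36, 8.55, 11.6 and 11.2 in LPS (log2 fold change -1.43, SE 0.193, adjusted p = 2.20e-05). Replicates 1 and 2 gave 9 calls against 24% of all genes, and replicates 3 and 4 gave 17 against 40.7%. All 17 called members kept their direction in both pairs of numbers.

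Slc7a11 in RIP went from 58.5, 48.7, 40.2 and 31.5 CPM in DMSO to 604, 691, 526 and 364 in LPS, the largest rise (log2 fold change 3.57, SE 0.253, adjusted p = 1.86e-08). Prdx5 (2.36), Sqstm1 (2.27), Sod2 (2.07) and Maff (2.02) followed, the same 5 genes as led in RNA. Other members were called in RIP and not in RNA. Nfe2l2 lay at 21.7, 25.9, 26.6 and 20.4 CPM in DMSO and 34.7, 45.0, 54.8 and 48.6 in LPS, without overlap (log2 fold change 0.92, SE 0.184, adjusted p = 0.000802). Prdx6 lay at 27.6, 21.2, 25.2 and 17.7 CPM in DMSO and 43.6, 36.3, 40.6 and 37.2 in LPS, also without overlap (log2 fold change 0.75, SE 0.182, adjusted p = 0.00343). Blvra lay at 29.2, 23.3, 25.1 and 22.4 CPM in DMSO and 41.5, 38.5, 50.7 and 47.5 in LPS (log2 fold change 0.80, SE 0.165, adjusted p = 0.00100). A call in RIP and not in RNA does not show that the assays differ, and the test of that difference follows.

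Of the thioredoxin group, RIP also gave higher Txn1, Prdx2 and Srxn1 in LPS. Txn1 stood at 20.0, 12.8, 18.7 and 14.3 CPM in DMSO and 38.9, 26.4, 34.9 and 45.6 in LPS (log2 fold change 1.12, SE 0.215, adjusted p = 0.000556) and Prdx2 at 18.1, 10.7, 13.1 and 16.0 CPM in DMSO and 36.4, 30.3, 33.0 and 43.1 in LPS (log2 fold change 1.27, SE 0.191, adjusted p = 6.07e-05), neither with overlap. Srxn1 rose (log2 fold change 1.00, SE 0.259, adjusted p = 0.00529), although RIP DMSO replicate 1, at 44.3 CPM, lay above the lowest LPS library. Esd rose without overlap (log2 fold change 1.28, SE 0.312, adjusted p = 0.00359). Keap1, Abcc1, G6pdx and Blvrb were called with adjusted p of 0.0159, 0.0164, 0.0386 and 0.0467, and each call depended on single libraries. Keap1 was not called without RIP DMSO replicate 2 or 3 or RIP LPS replicate 1 or 4 (adjusted p 0.0536 to 0.0780). Abcc1 was not called without RIP DMSO replicate 3 or 4 or RIP LPS replicate 1 (0.0646 to 0.0909).

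G6pdx was not called in RIP without RIP DMSO replicate 2, 3 or 4, RIP LPS replicate 1, 3 or 4, or RIP LPS+TM7nox replicate 1 or 2 (adjusted p 0.0534 to 0.160). Blvrb was not called without RIP DMSO replicate 2, 3 or 4, RIP LPS replicate 1 or 4, or any 1 of the 4 LPS+TM7nox libraries (0.0512 to 0.213). Its log2 fold change of 0.84 became 1.26 without RIP DMSO replicate 1 and 0.51 without RIP LPS replicate 1. Prdx1 missed the threshold (log2 fold change 0.84, SE 0.334, adjusted p = 0.0515) and passed it without RIP DMSO replicate 1 (adjusted p = 0.0253), RIP LPS replicate 4 (0.0186) or RIP LPS+TM7nox replicate 4 (0.0401). Sod1 passed without RIP LPS replicate 2 (0.57, adjusted p = 0.0309), and Nqo1 without RIP LPS replicate 1 (-2.11, adjusted p = 0.0359). With the replicate block 7 more members were called: Prdx1 (adjusted p = 0.000123; 0.000123 to 0.204 over 18 settings), Sod1 (adjusted p = 0.0139; 0.0139 to 0.746 over 18 settings), Gstm1 (adjusted p = 0.0180; 0.0180 to 0.486 over 18 settings), Taldo1 (adjusted p = 0.0244; 0.0244 to 0.909 over 18 settings), Tkt (adjusted p = 0.0337; 0.0337 to 0.705 over 18 settings), Txnrd1 (adjusted p = 0.0448; 0.0448 to 0.634 over 18 settings) and Gclm (adjusted p = 0.0415; 0.0415 to 0.347 over 18 settings). Of these Gclm was lower in LPS (-0.38) and the other 6 were higher.

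RIP over RNA within a treatment measures how strongly an mRNA was recovered with anti-HuR relative to its level and to the typical gene, and it has no absolute scale. Most members had a lower ratio than the typical gene. In DMSO 7 of 37 were called higher in RIP and 26 lower, against 37.0% and 33.4% of 14311 genes. In LPS it was 6 higher and 24 lower, against 32.9% and 30.8%, and in LPS+TM7nox 6 higher and 26 lower, against 35.2% and 34.8%. The members called lower were thus 70.3%, 64.9% and 70.3%. The RNA libraries of LPS and LPS+TM7nox, whose comparison led to the choice of the set, enter the ratios in these treatments and not the ratio in DMSO. The median log2 ratio was -1.32, -1.06 and -1.39 over the members, and 0.04, -0.06 and -0.09 over all genes. Within replicates 1 and 2 the calls numbered 30, 28 and 29 in DMSO, LPS and LPS+TM7nox, against 49.5%, 47.0% and 52.6% of all genes. Within replicates 3 and 4 they numbered 33, 29 and 32, against 70.5%, 58.4% and 66.8%. With DESeq2's size factors the median over all genes was 0.16, 0.18 and 0.22 higher, 31 of the 33, 28 of the 30 and 29 of the 32 calls among the members were kept, and no called member changed sign. The lost calls were Keap1 and Me1 in DMSO, Keap1 and Osgin1 in LPS, and Keap1, Gclc and Me1 in LPS+TM7nox, where Gclm was gained.

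A group of 6 members was called higher in RIP in all 3 treatments: Gsr, Sod2, Mafg, Txnrd1, Slc7a11 and Nqo1. Nqo1, which is in the counts of calls above, had 8 and 5 counts in the RNA of DMSO and LPS. It passed the filter through RIP and LPS+TM7nox, where it was high, so its calls in DMSO and LPS are not read as recovery. Gsr in RIP lay at 2349, 1959.5, 2074 and 1927 CPM in DMSO, 2457, 2973, 2490.0 and 2009 in LPS and 4937, 8043, 3798 and 4531 in LPS+TM7nox, against 82.8 to 188 CPM in RNA. Every RIP library was over the highest RNA library, and the fitted log2 ratios were 4.71 (SE 0.226), 4.8 (SE 0.227) and 5.19 (SE 0.231) in DMSO, LPS and LPS+TM7nox, with adjusted p of 3.68e-15, 2.95e-15 and 6.63e-16. The IgG libraries held 63.8, 83.8 and 113 CPM of Gsr in the same order. Sod2 in RIP lay at 594, 1010.0, 960.3 and 781 CPM in DMSO, 2767, 4918, 3893 and 2831 in LPS and 2665, 4651, 2908 and 2357 in LPS+TM7nox. Its ratios were 3.66 (SE 0.237), 3.44 (SE 0.234) and 3.72 (SE 0.238), with adjusted p of 8.16e-13, 2.42e-12 and 4.91e-13, and IgG held 51.6, 262 and 188 CPM. The mRNAs of glutathione reductase and of the mitochondrial dismutase thus made up a larger share of every RIP library than of the RNA and IgG libraries of the same treatment.

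Mafg in RIP lay at 266, 253, 319 and 434 CPM in DMSO, 221, 272, 284 and 303 in LPS and 782, 1049.7, 665 and 1240.1 in LPS+TM7nox. Its ratios were 2.57 (SE 0.225), 2.28 (SE 0.222) and 2.70 (SE 0.225), with adjusted p of at most 2.16e-09. Slc7a11 in RIP reached 2567, 2936, 2526 and 1885 CPM in LPS+TM7nox, and its ratios were 1.81 (SE 0.249), 2.61 (SE 0.250) and 2.80 (SE 0.251) (adjusted p of at most 5.52e-07). Txnrd1 in RIP lay at 609, 574, 694 and 641 CPM in DMSO, 871, 884, 924 and 689 in LPS and 1965, 2873, 1947 and 2008 in LPS+TM7nox. Its ratios were 1.84 (SE 0.153), 1.53 (SE 0.151) and 1.89 (SE 0.153) (adjusted p of at most 3.03e-09). Nqo1 had 113, 58 and 480 counts over the 4 RIP libraries of DMSO, LPS and LPS+TM7nox, against 8, 5 and 128 in RNA. Its ratio in LPS+TM7nox was 2.28 (SE 0.676), with a wide error. In DMSO and LPS it had few RNA counts and entered the fit through RIP and LPS+TM7nox, so no ratio is given there. Its call in LPS was lost without RIP LPS replicate 1 (adjusted p = 0.0626).

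At the other end, 24 members were called lower in RIP in all 3 treatments. In DMSO the lowest ratios were those of Ephx1 (-2.48), Cbr1 (-2.47), Txn1 (-2.26), Taldo1 (-2.19) and Gstm1 (-2.01). All NADPH genes were lower in RIP in DMSO, with G6pdx at -1.19, Pgd at -1.24, Tkt at -1.93 and Me1 at -0.42. Sqstm1 in RIP lay at 32.7, 20.8, 31.1 and 34.5 CPM in DMSO, 108, 67.5, 198 and 216 in LPS and 722, 499, 993 and 732 in LPS+TM7nox, below its RNA level in every treatment (-1.78, -1.48 and -1.67). Nfe2l2 was lower too (-1.59, -1.11 and -1.46). Within the families the members parted: Sod2 was high and Sod1 low (-1.65 in DMSO), Mafg was high and Maff near the typical gene (0.12, SE 0.379), and Txnrd1 was high while its substrate Txn1 was low.

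Calls near the threshold depended on single libraries. Gclm was called higher in DMSO (0.55, adjusted p = 0.0323) and lost the call without RNA DMSO replicate 3 or 4, RIP DMSO replicate 1 or 3, or any 1 of the 8 RIP libraries of LPS and LPS+TM7nox (adjusted p 0.0617 to 0.105). In LPS+TM7nox Gclm was called without RNA replicate 2 (0.0408) or RIP replicate 4 (0.0314) of that group and with the replicate block (adjusted p = 0.0395; 0.0311 to 0.544 over 30 settings). Keap1 was called lower in each treatment. In DMSO that call was lost without RNA DMSO replicate 4 or RIP DMSO replicate 1 or 2 (0.0501 to 0.118), and in LPS without RNA LPS replicate 2, 3 or 4 or RIP LPS replicate 2 or 3 (0.0534 to 0.123). Me1 was not called in DMSO without RNA DMSO replicate 2 (0.111) or RIP DMSO replicate 4 (0.0830), nor in LPS+TM7nox without RIP replicate 4 (0.0753). Osgin1 in LPS was not called without RNA LPS replicate 2 or RIP LPS replicate 1, 3 or 4 (0.0521 to 0.0814).

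Gclc was called lower in DMSO (log2 ratio -0.64, SE 0.184, adjusted p = 0.00336) and missed the threshold in LPS (-0.41, adjusted p = 0.0596). In LPS it passed with the replicate block (adjusted p = 0.0153; 0.0153 to 0.344 over 30 settings) and without RNA DMSO replicate 1 (0.0464), RIP DMSO replicate 1 (0.0483) or RNA LPS+TM7nox replicate 1 (0.0374) or 4 (0.050). In LPS+TM7nox its ratio of -0.50 was called, but became -0.33 without RNA replicate 1 of that treatment (adjusted p = 0.112) and lost the call without RIP replicate 2, 3 or 4 of it (0.0707 to 0.115). Srxn1 was called lower in DMSO without RIP DMSO replicate 1 (-0.60, adjusted p = 0.00624). In LPS+TM7nox it was called without the same library (0.0444) and with the replicate block (adjusted p = 0.0326; 0.0214 to 0.495 over 30 settings). Cat in DMSO was called lower with the replicate block (adjusted p = 0.0454; 0.0454 to 0.781 over 30 settings).

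The other genes of the pathways in DMSO stand against the 37.0% and 33.4% of all genes called higher and lower in RIP, and the difference of the shares was not tested. Of 7 tested genes of Nrf2 control outside the set, 4 were higher in RIP and 1 lower, with Nfe2l1 at 2.30 (SE 0.202) and Mafk at 1.90 (SE 0.279). So the small Maf genes Mafg and Mafk were both high, unlike Maff. Of 14 other glutathione genes 2 were higher, the glyoxalase Glo1 (2.51, SE 0.163) and the glutaredoxin Glrx2 (2.14, SE 0.233), and 8 were lower. Of 10 other thioredoxin genes 2 were higher and 7 lower, with the thioredoxin inhibitor Txnip at 2.35 (SE 0.191) and Prdx4 at -2.06 (SE 0.151). The other NADPH genes gave 5 higher and 4 lower of 14, with Mthfd1 at -2.21 (SE 0.187). The genes counted as higher include Nfe2l3 (mean 0.0792 CPM in RNA and 0.733 in RIP) and the mitochondrial transhydrogenase Nnt (0.0482 and 1.34 CPM). Both had too few counts to be tested in RNA and entered this comparison through RIP, so no ratio is given for them. Of the 7 oxidase genes 1 was higher and 5 lower, with Cyba, the partner of Cybb in the membrane, at -2.41 (SE 0.187).

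**Figure D4:**
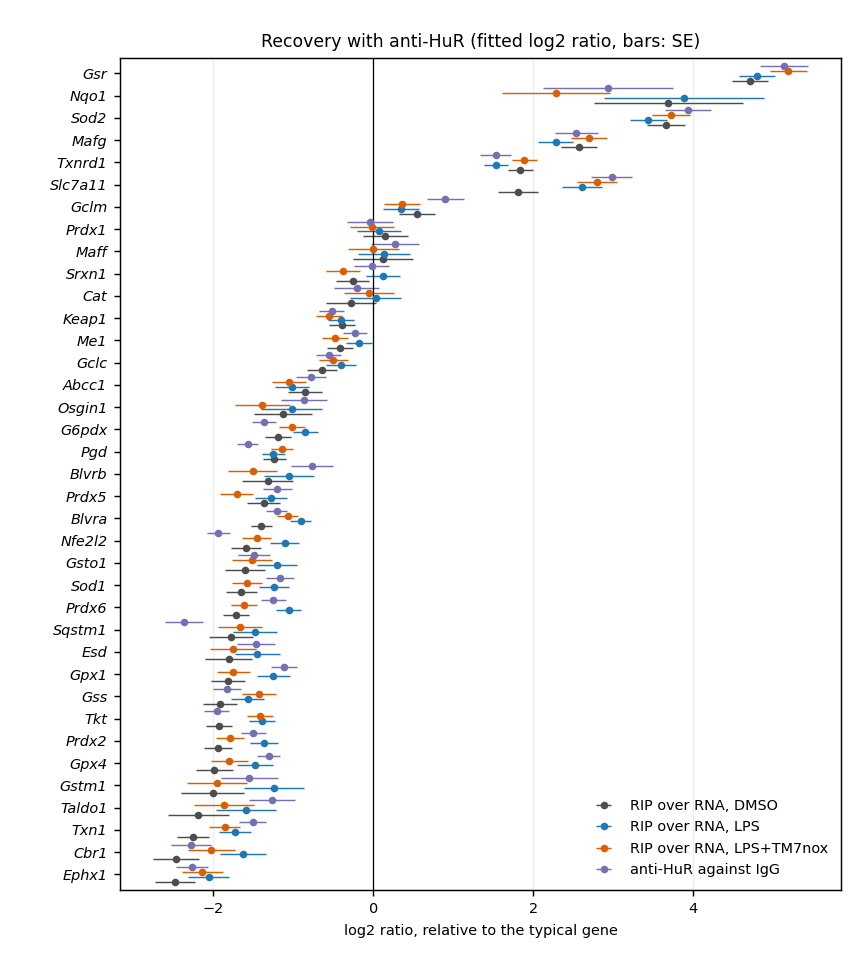
Fitted log2 ratio of RIP over RNA in DMSO (grey), LPS (blue) and LPS+TM7nox (orange), and of anti-HuR over IgG (purple), for the 37 members tested; points are estimates, bars are the SE, and 0 is the typical gene. Gsr, Nqo1, Sod2, Mafg, Txnrd1 and Slc7a11 lie above 1.5 in each, and most others lie below 0. Nqo1 had few counts in IgG and in the RNA of DMSO and LPS, and entered the fits through RIP and LPS+TM7nox.

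Anti-HuR against IgG compares the 12 RIP libraries with the 3 IgG libraries, with treatment as a covariate. Of 37 members 7 were called higher with anti-HuR and 25 lower, against 33.8% and 34.2% of 14973 genes, with a median of -1.17 over the members and -0.00 over all genes. The 7 were Gsr (5.14, SE 0.298), Sod2 (3.94, SE 0.287), Slc7a11 (2.98, SE 0.252), Mafg (2.54, SE 0.271), Txnrd1 (1.53, SE 0.191), Gclm (0.90, SE 0.228) and Nqo1. Nqo1 had 4, 2 and 12 counts in IgG of DMSO, LPS and LPS+TM7nox. It entered the comparison through RIP, so no ratio is given for it. Besides Gclm, the 7 are those called higher in RIP over RNA in all treatments, and both comparisons use the same 12 RIP libraries. Sqstm1 was the lowest (-2.37, SE 0.234): the IgG libraries held 141, 844 and 3741 CPM in DMSO, LPS and LPS+TM7nox, above its RNA level in each. All IgG libraries are replicate 3, and within that number alone the same 32 members were called in the same direction, against 62.8% of all genes. Blvrb was not called without IgG DMSO (adjusted p = 0.0792) or IgG LPS+TM7nox (0.0736), Osgin1 without IgG DMSO (0.0579) or IgG LPS (0.131), and Keap1 without IgG LPS (0.0578). Me1 was called with the replicate block (adjusted p = 0.0250; 0.0250 to 0.679 over 20 settings).

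Because HuR binds U-rich RNA, the 3′ UTR of each member's canonical transcript was read and its runs of 5 U counted, with overlapping matches. The 6 members called higher in RIP in all treatments, Nqo1 with its few RNA counts among them, had a median of 28 matches (18 to 65). The 24 with low recovery had a median of 1.5 (0 to 22). The 7 other members tested had a median of 13 (6 to 33), and the 10996 coding genes tested a median of 6. The most U-rich stretch of 30 bases is printed for the 6, and for 4 members with low recovery and no run of 5 U. Capitals mark runs of at least 5 U.
Gsr: guuugUUUUUUUUUUUUUguuuugUUUUUU
Sod2: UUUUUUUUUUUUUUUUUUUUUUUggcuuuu
Mafg: UUUUUUUUUUUUUUUUUUggguuuuguugu
Txnrd1: uuuuauuuauuuaUUUUUUaagUUUUUUUU
Slc7a11: uuuguagUUUUUUUUUcuuuccuuaUUUUU
Nqo1: uuugcuucaugcUUUUUUUUUUUUUUUgau
Sqstm1: ucuuuaguguuugugucuaauguuaaugcu
Gpx4: ugggcucgagcuucacccuggcugccuugu
Gss: cuucuauccccuguacuuggcacuccucuu
Osgin1: ucuaaagauuucccauuugggaaccagucu
The first 6 stretches lie at chr8:34188099-34188128 on the + strand for Gsr, chr17:13235602-13235631 on the + strand for Sod2, chr11:120518914-120518943 on the - strand for Mafg, chr10:82733288-82733317 on the + strand for Txnrd1, chr3:50322667-50322696 on the - strand for Slc7a11 and chr8:108115314-108115343 on the - strand for Nqo1. The other 4 lie at chr11:50091060-50091089 on the - strand for Sqstm1, chr10:79892222-79892251 on the + strand for Gpx4, chr2:155405457-155405486 on the - strand for Gss and chr8:120172720-120172749 on the + strand for Osgin1. The other 4 were chosen for having no run, so their contrast with the first 6 is fixed by that choice. Members with low recovery also held U-rich stretches, with 26 U of 30 bases in G6pdx, 22 in Sod1 and 22 in Esd, within the 22 to 27 of the first 6. The stretches are descriptions of sequence, not binding sites.

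Over the 37 members tested, the number of U runs and the RIP over RNA ratio in DMSO had a Pearson r of 0.77 and a Spearman rho of 0.71. Over all 10996 coding genes tested these were 0.48 and 0.53. Set per kilobase of 3′ UTR, they were 0.70 and 0.50 over the members and 0.35 and 0.44 over all coding genes. In LPS the values for the number of runs were 0.76 and 0.70, and in LPS+TM7nox 0.76 and 0.74. The count of AUUUA, the AU-rich motif, gave 0.58 and 0.61 in DMSO over the members and 0.28 and 0.36 over all coding genes. The number of U in the most U-rich 30 bases gave 0.64 and 0.57 over the members and 0.54 and 0.54 over all coding genes, and the percent of U in the UTR 0.46 and 0.27 against 0.26 and 0.27. These are across genes of the same libraries, which are not independent replicates, and the number of runs also grows with the length of the UTR (for length itself 0.42 and 0.52 over the members, 0.25 and 0.37 over all coding genes). Some members went against the relation. Sod1 had 22 matches and a ratio of -1.65 in DMSO, G6pdx 19 and -1.19, and Esd 17 and -1.81. Gclm had 33 matches and a ratio of 0.55, Prdx1 24 and 0.15, and Srxn1 19 and -0.26. Nqo1, with 31 matches, is among the 37, and its ratio in DMSO rests on few RNA counts.

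**Figure D5:**
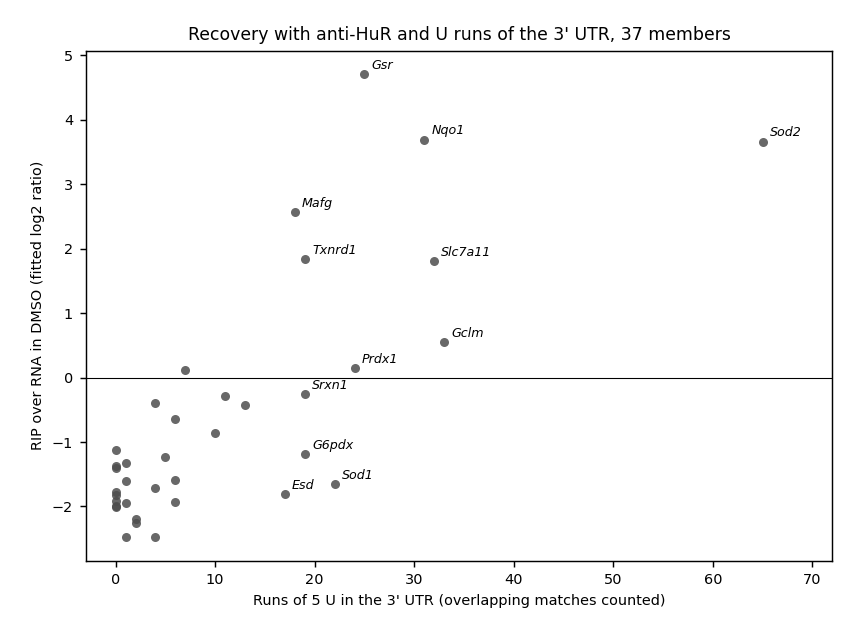
Fitted log2 ratio of RIP over RNA in DMSO against the number of runs of 5 U in the 3′ UTR of the canonical transcript, with a point for each of the 37 members tested. Gsr, Nqo1, Sod2, Mafg, Txnrd1 and Slc7a11 lie at 18 or more runs and above 1.5, while Sod1, G6pdx, Srxn1 and Esd lie at 17 or more runs and below 0. Gclm and Prdx1 lie at 18 or more runs and between 0 and 1.5.

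Whether treatment changed the recovery of the members was asked by the change of the RIP over RNA ratio. For LPS against DMSO, 0 of 37 members were called, against 0.0419% of all genes, or 6 of 14311. At an unadjusted p under 0.05 there were 6 members and 1041 of the 14311 genes. DESeq2 and the replicate block also called 0 members, with 9 and 12 at an unadjusted p under 0.05, beside 1347 and 1766 genes. The estimates ran from -0.31 for Txnrd1 to 0.84 for Cbr1. They were positive for 29 of 37, with a median of 0.33 against 0.02 over all genes. Slc7a11 had 0.80 (SE 0.339), Prdx6 0.65 (SE 0.225) and Nfe2l2 0.48 (SE 0.255). An adjusted p over the threshold does not show that recovery was equal. The members that were called for LPS in RIP and not in RNA were thus not shown to differ between the assays.

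For LPS+TM7nox against LPS, which holds the comparison behind the choice, 0 members were called, against 0.00699% of all genes, or 1 of 14311, with 1 member and 771 genes at an unadjusted p under 0.05 and 0 members called by DESeq2. With the replicate block 0 members were called, with 6 members and 1596 genes at an unadjusted p under 0.05. The differences of the ratio were 0.40 (SE 0.274) for Gsr, 0.28 (SE 0.302) for Sod2, 0.42 (SE 0.299) for Mafg, 0.37 (SE 0.209) for Txnrd1, 0.19 (SE 0.333) for Slc7a11 and -1.61 (SE 1.21) for Nqo1. The value of Nqo1 rests on few counts. Over all 37 the median was -0.17 and 8 were positive, with a median of 0.00 over all genes. The RNA and RIP libraries of LPS enter this change and the change by LPS with opposite signs, so the directions of the estimates are not independent. Side by side, Gsr was 0.77 (SE 0.154) higher in LPS+TM7nox than in LPS in RNA and 1.14 (SE 0.227) higher in RIP, and Gpx1 was at -0.54 (SE 0.191) and -1.08 (SE 0.192).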

How the data were processed

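Total RNA, RNA recovered with anti-HuR and RNA recovered with control IgG were sequenced from RAW264.7 cells, in 12, 12 and 3 libraries. The authors deposited 1 table of raw counts per gene for the 27 libraries. Per the labels' protocols, libraries were made from 7 ng of RNA with a stranded SMART-Seq kit. The submitters' processing notes name FastQC 0.11.9, STAR, HTSeq, DESeq2 and GRCm39, while the sources used here do not give the annotation release or the strand setting.

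All tests used edgeR 4.0.16 (R 4.3.3) on the deposited counts, with TMM, filterByExpr with a minimum count of 10, the quasi-likelihood F test, two-sided, and Benjamini-Hochberg adjustment over all genes of a fit, called under 0.05. LPS against DMSO was fitted over the 12 RNA or 12 RIP libraries, RIP over RNA over 24, and anti-HuR against IgG over 15 with treatment as a covariate. The SE is the log2 fold change divided by the root of F. The scripts were tested on simulated data. The RNA libraries held 2.73 to 28.3 M counts, and Nqo1 had 8 and 5 counts in all in the RNA of DMSO and LPS.

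Of the 55483 gene identifiers 51731 (93.2%), and all 38 members, matched GENCODE M39 on GRCm39, from which positions, promoters and 3′ UTRs of canonical transcripts were read. The alternatives were DESeq2's size factors, DESeq2 1.42.0, no filter, a block for the replicate number, replicates 1 and 2 or 3 and 4 alone, and each library left out in turn. Same-numbered libraries of different groups deviated together in 36 of 36 pairs of libraries (correlation of deviations from the group means 0.143 to 0.506), and in 35 the own number correlated best. A block for the replicate number was therefore among the alternatives. The main tests had no such block and treated same-numbered libraries as independent. No 2 libraries held the same values.

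The members, the lists of other pathway genes and the cell type markers were chosen with earlier results of these data known. All members are accounted for, and other genes are named from those with the largest change of their list among those called, and most genes of these lists are given as counts only.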

Additional observations from a re-analysis of the deposited data

Results flagged for a closer look

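Of 220 groups of 4 libraries examined (a member in an assay and treatment), 18 held a library that stood far from the other 3 for the size of the group's range, where chance alone gives about 5%. In RNA these were Gss in DMSO replicate 1 at 19.0 CPM, Txn1 in LPS replicate 1 at 93.7, Sod2 in LPS replicate 1 at 269.6, Cat in LPS replicate 1 at 49.4, G6pdx in LPS replicate 2 at 94.8 and Gpx1 in LPS replicate 2 at 179.6. In LPS+TM7nox, RNA replicate 1 held Prdx1 at 1745 CPM and RNA replicate 4 held Pgd at 164.

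In RIP of DMSO, replicate 1 stood apart for Srxn1 at 44.3 CPM, Nqo1 at 2.49 and Blvrb at 9.28, replicate 2 for Gpx4 at 18.3 and Gsto1 at 3.41, and replicate 3 for Maff at 0.437. In RIP of LPS, replicate 1 stood apart for Taldo1 at 90.8 CPM and Abcc1 at 142. In RIP of LPS+TM7nox these were Txnrd1 in replicate 2 at 2873 CPM and Prdx5 in replicate 3 at 29.1. Replicate 1 of a group accounts for 10 of the 18.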

How the results depend on the processing

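The number of members called for LPS against DMSO in RNA, 17 over all libraries, dropped to 5 with replicates 1 and 2 alone and reached 27 with replicates 3 and 4 alone. In RIP it was 17, and 9 with replicates 1 and 2 and 17 with replicates 3 and 4. For LPS+TM7nox against LPS in RNA it was 23, and 11 and 27 in the same order. The cause was not tested. Leaving out each library in turn gave 14 to 20 for LPS in RNA, 13 to 18 for LPS in RIP, 31 to 33, 28 to 31 and 31 to 33 for RIP over RNA in DMSO, LPS and LPS+TM7nox, 30 to 32 for anti-HuR against IgG, 19 to 24 and 20 to 22 for LPS+TM7nox against LPS in RNA and RIP, and 24 to 28 for LPS+TM7nox against DMSO. The replicate block gave 24, 24, 34, 31, 34, 33, 27, 25 and 29 in the same order, and beyond the gains given above it changed no other call for LPS, RIP over RNA or IgG. In the comparisons with LPS+TM7nox it added Taldo1, Sod1, Gpx1 and Blvra against LPS in RNA, Nfe2l2, Prdx6, G6pdx and Blvra against LPS in RIP, and Nfe2l2, Gclc and Sod1 against DMSO. No member called over all libraries changed sign under an alternative, while some members that were not called did.

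Over all genes, calls for LPS went from 5190 to 1668 in RNA and from 6090 to 3392 in RIP in replicates 1 and 2. For LPS+TM7nox against LPS they went from 1704 to 168 in replicates 1 and 2, 3489 in replicates 3 and 4 and 3091 with the replicate block in RNA. In RIP they went from 2212 to 789, 1070 and 4577. For LPS+TM7nox against DMSO they went from 5850 to 2246 in replicates 1 and 2. The change of RIP over RNA by LPS had 6 calls, 66 by DESeq2, 49 without a filter, 50 with the replicate block, 0 in replicates 1 and 2 and 13 in replicates 3 and 4. That by TM7nox had 1, 3, 5, 2, 0 and 0. Depth limits Nqo1, with 8 and 5 counts in all in the RNA of DMSO and LPS, and Mgst1, with 3 and 0.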
